A study of Drosophila melanogaster with 3 samples.

Results

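The regions described here are the ChIP-seq peaks in the centromere-side 2 Mb of the listed part of arms 2L, 3L, X and 3R of Drosophila melanogaster. They were chosen by position alone. A peak belonged if its midpoint lay within 2 Mb of the last listed peak end of 2L, 3L or X, or within 2 Mb of the first listed peak start of 3R. The list gives no arm lengths, so any sequence beyond the last listed peak was not counted. On 2L, 3L and X the 2 Mb may therefore lie at different distances from the end of the arm sequence, which limits comparison between arms. The rule gave 347 of the 7579 peaks in the list (4.58%), of which 66 lay on 2L, 85 on 3L, 57 on X and 139 on 3R. The remainders of the same arms, with 5651 peaks, were set beside them. The matching end of 2R was not analysed here.

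The one peak list came from a ChIP sample titled as replicates 1 and 2, of the source 7T at the stage labelled 3dFemale, with the tagged factor named in the title as cad-GFP. The antibody is labelled NWG-GFP. The other 2 of the 3 samples are inputs of the same source and stage, and their values were not used here. The growth text speaks of y w, VK33 flies and of embryos, which does not match the stage label, and the labels name no driver for the tagged gene. With 1 list for all ChIP replicates there is no replicate error on any value below and no test between samples. Intervals cover counting error only, and they are too narrow where peaks lie in groups.

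The cad gene encodes Caudal, a transcription factor with a homeodomain that acts in posterior patterning of the embryo and later in the gut. The chromatin beside a centromere is pericentric heterochromatin, which is rich in repeats, poor in genes and marked by methylated lysine 9 of histone H3 and by HP1 proteins. Along an arm it gives way to gene-rich euchromatin over a transition zone. In BDGP5, the assembly of these positions, much of the pericentric DNA is held on separate sequences whose names end in Het, so an arm's last base is not its centromere. Neither histone marks nor genes of this build were used here, so the ends are named by position and their chromatin state was not measured.

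The first question was whether peaks were as frequent at the centromere-side ends as along the rest of each arm. They were fewer on 2L, 3L and X and not on 3R. The end of X, X 20415741 to 22415740, held 28.5 peaks per Mb, against 64.9 in the rest of X, a ratio of 0.439 (95% exact counting interval 0.331 to 0.572). The end of 2L, 2L 20875436 to 22875435, held 33.0 per Mb, against 58.2 in the rest of 2L (ratio 0.567, interval 0.436 to 0.726). On 3L the end, 3L 21332959 to 23332958, held 42.5 per Mb, against 68.7 in the rest of 3L (ratio 0.618, interval 0.491 to 0.770). The end of 3R, 3R 3 to 2000002, held 69.5 per Mb, against 63.7 in the rest of 3R. Its ratio of 1.09 had an interval of 0.911 to 1.30, which includes 1.

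The bases inside peaks differed by more than the peak numbers on the sparse ends. Peaks covered 4.43% of the end of X, against 12.2% of the rest of X, and 5.25% of the end of 2L, against 10.4% of the rest of 2L. On 3L they covered 6.27% of the end, against 11.7% of the rest. On 3R the end was covered to 12.6%, against 11.3% of the rest of that arm.

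The 2 Mb rule cut the list at places that were themselves sparse on X and 3R. On 2L the innermost member was the peak 2L 20877731 to 20880232 with a score of 412.69, and the first peak outside was 2L 20868945 to 20871003 with 148.96. On 3L they were 3L 21335510 to 21337068 (score 152.45) and 3L 21310180 to 21311333 (138.77). On X the boundary fell in a peak-free interval of 130.7 kb, from 20396423 to 20527077, with scores of 523.14 inside and 250.24 outside. On 3R it fell in one of 341.8 kb, from 1834451 to 2176236, flanked by peaks of 1026.76 inside and 1398.28 outside.

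The gradient along each end was followed in steps of 500 kb counted inward from the edge. On 2L the first 4 steps held 4, 10, 11 and 41 peaks, where the steps of the rest of 2L averaged 28.8 ± 13.3 (SD, n = 41 steps). The outermost 1.5 Mb of 2L therefore held 25 peaks, where the density of its rest would give 87.3, and the fourth step was above the mean of the rest. None of the 41 steps in the rest of 2L held as few as the outermost one.

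On 3L the increase was gradual, with 16, 17, 22 and 30 peaks in the 4 steps and 36 in the fifth, against 34.1 ± 12.3 in the rest of 3L (SD, n = 42 steps). The 3L end was the only one of the 4 in which each step held more peaks than the one outside it up to the boundary and just beyond. The lowest count was less unusual there, since 4 of the 42 steps in the rest of 3L held 16 peaks or fewer.

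On X the counts did not climb steadily. The 4 steps held 8, 13, 29 and 7 peaks, and the next 3, beyond the boundary, held 25, 32 and 43, against 32.8 ± 12.1 in the rest of X (SD, n = 40 steps). A step at or above the mean of the rest was first reached 3.0 Mb from the edge. No step in the rest of X held 8 or fewer.

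On 3R the outermost step already held 32 peaks, against 31.9 ± 10.9 in the rest of 3R (SD, n = 51 steps). The following steps held 37, 51 and 19, and the 3 steps beyond the boundary held 23, 20 and 19. Counts on 3R were thus lower between 1.5 and 3.5 Mb from the edge than in the outermost steps. They do not set this stretch apart, since steps in the rest of 3R held as few as 12 peaks.

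**Figure D1:**
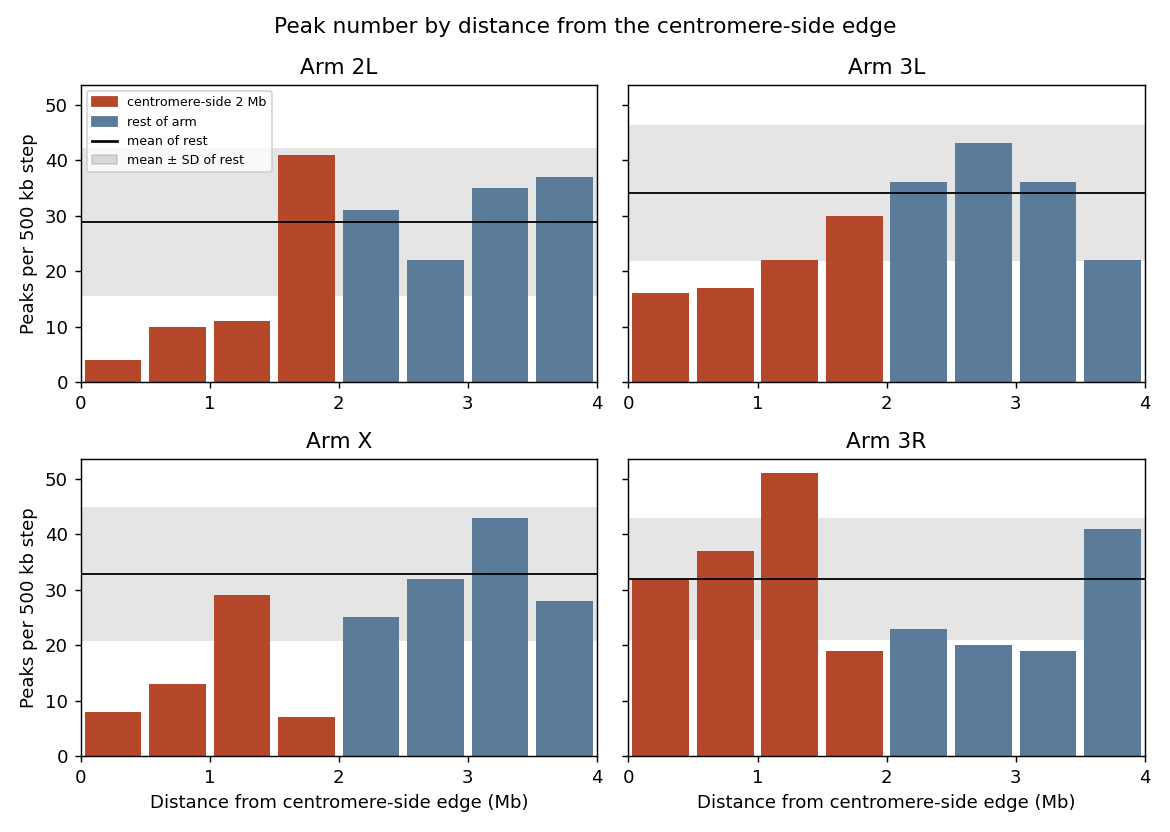
Bars give the number of peaks in each 500 kb step from the centromere-side edge of an arm inward, with steps inside the 2 Mb in red and steps beyond it in blue. The line and band are the mean and SD of the steps in the rest of the arm. Outermost steps hold 4 peaks on 2L, 16 on 3L and 8 on X, all below the band, and 32 on 3R, at the mean.

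Each arm was also divided into complete windows of 2 Mb laid from the same edge. The centromere-side window of X held 57 peaks, against 103 to 148 in the other 10 windows of X. That of 2L held 66, against 79 to 168 in the other 10 windows, and that of 3L held 85, against 90 to 174. Each of these 3 was the lowest of its arm, narrowly so on 3L. The centromere-side window of 3R, with 139 peaks, ranked eighth from the bottom of 13, in the middle of the 89 to 164 peaks of the others.

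At the opposite, telomere-side ends, 2 Mb held 109 peaks on 2L, 171 on 3L, 124 on X and 110 on 3R. On 2L, 3L and X these numbers exceeded those of the centromere side, and on 3R the telomere-side number was the lower one.

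**Figure D2:**
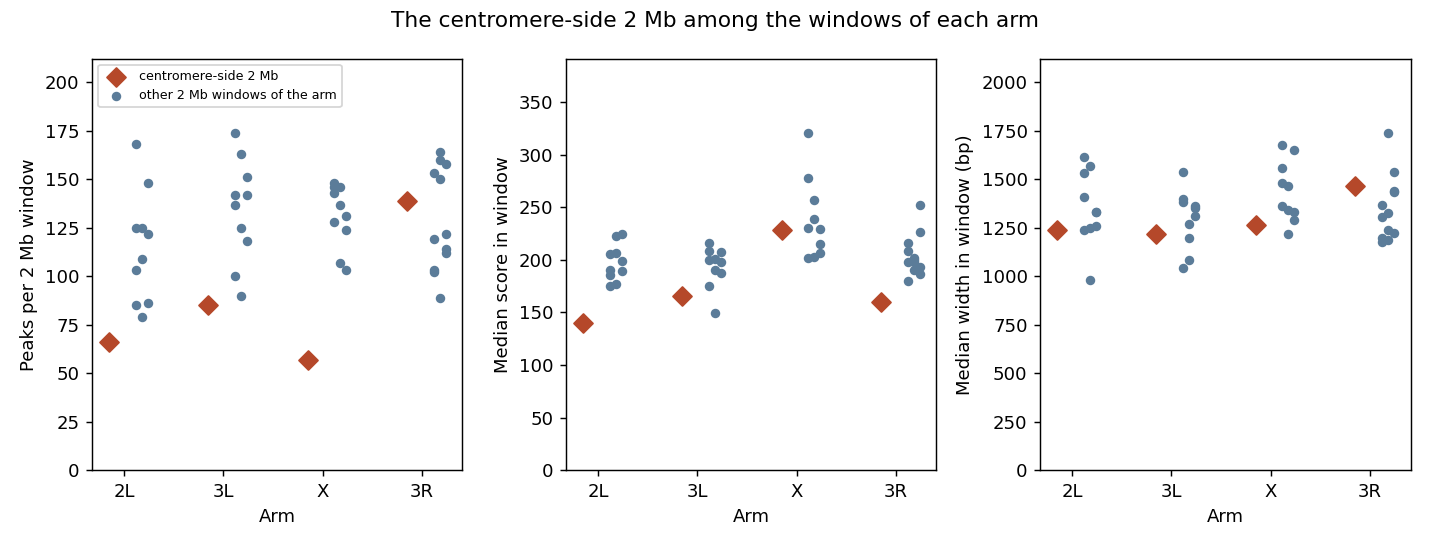
Each point is a complete 2 Mb window of an arm. Diamonds mark the centromere-side window, and the panels give its number of peaks, their median score on the authors' scale and their median width in bp. By peak number the diamonds are the lowest of their arms on 2L (66), 3L (85) and X (57) but not on 3R (139). By median score they are lowest on 2L (140.06) and 3R (160.38).

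The low numbers went with long peak-free intervals. Intervals of over 100 kb without a peak took up 72.4% of the end of X, against 31.5% of the rest of X. They took up 56.5% of the end of 2L, against 35.9% of its rest, and 38.5% of the end of 3L, against 28.1% of its rest. On 3R the share was lower in the end, at 23.1%, against 30.2% in the rest. The list gives no read depth, so such an interval says only that no peak was listed there.

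On X these intervals left 7 separate groups of peaks in the 2 Mb. The outermost 2 held 3 and 2 peaks, with scores of 64.72 to 228.66. Then came 12 peaks at X 21846112 to 21942798, 5 at X 21389724 to 21503064, 16 at X 21102467 to 21247376 and 17 at X 20836608 to 20999672, and last a pair at X 20527078 to 20533441. The groups of 12, 16 and 17 peaks together made up most of the end, and inside them density was 104 to 124 peaks per Mb. The longest peak-free interval of this end was X 21503065 to 21846111 (343 kb), and only 1 interval within the rest of X was longer.

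On 2L there were also 7 groups, and they grew inward. From the edge they held 1, 1, 2, 10, 11, 28 and 13 peaks. The outermost 4 groups had no score above 220.44. The longest interval, 2L 22443391 to 22737003 (294 kb), separated single peaks near the tip from a pair of peaks, and 5 intervals in the rest of 2L were longer.

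The end of 3L had 6 groups of 1, 3, 22, 7, 5 and 47 peaks from the edge inward. The group of 22, at 3L 22662279 to 22942060, lay within 671 kb of the edge and reached a score of 1277.88, so peaks of high score were present in the sparse outer part of this arm. The longest interval there was 3L 22467935 to 22662278 (194 kb). On 3R there were 3 groups, of 26, 110 and 3 peaks. The longest interval with both flanking peaks in the end was 161 kb, at 3R 305583 to 466401. The interval of 341.8 kb across the boundary of the 3R end was longer. It also exceeded the longest interval within the rest of 3R (335.8 kb).

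**Figure D3:**
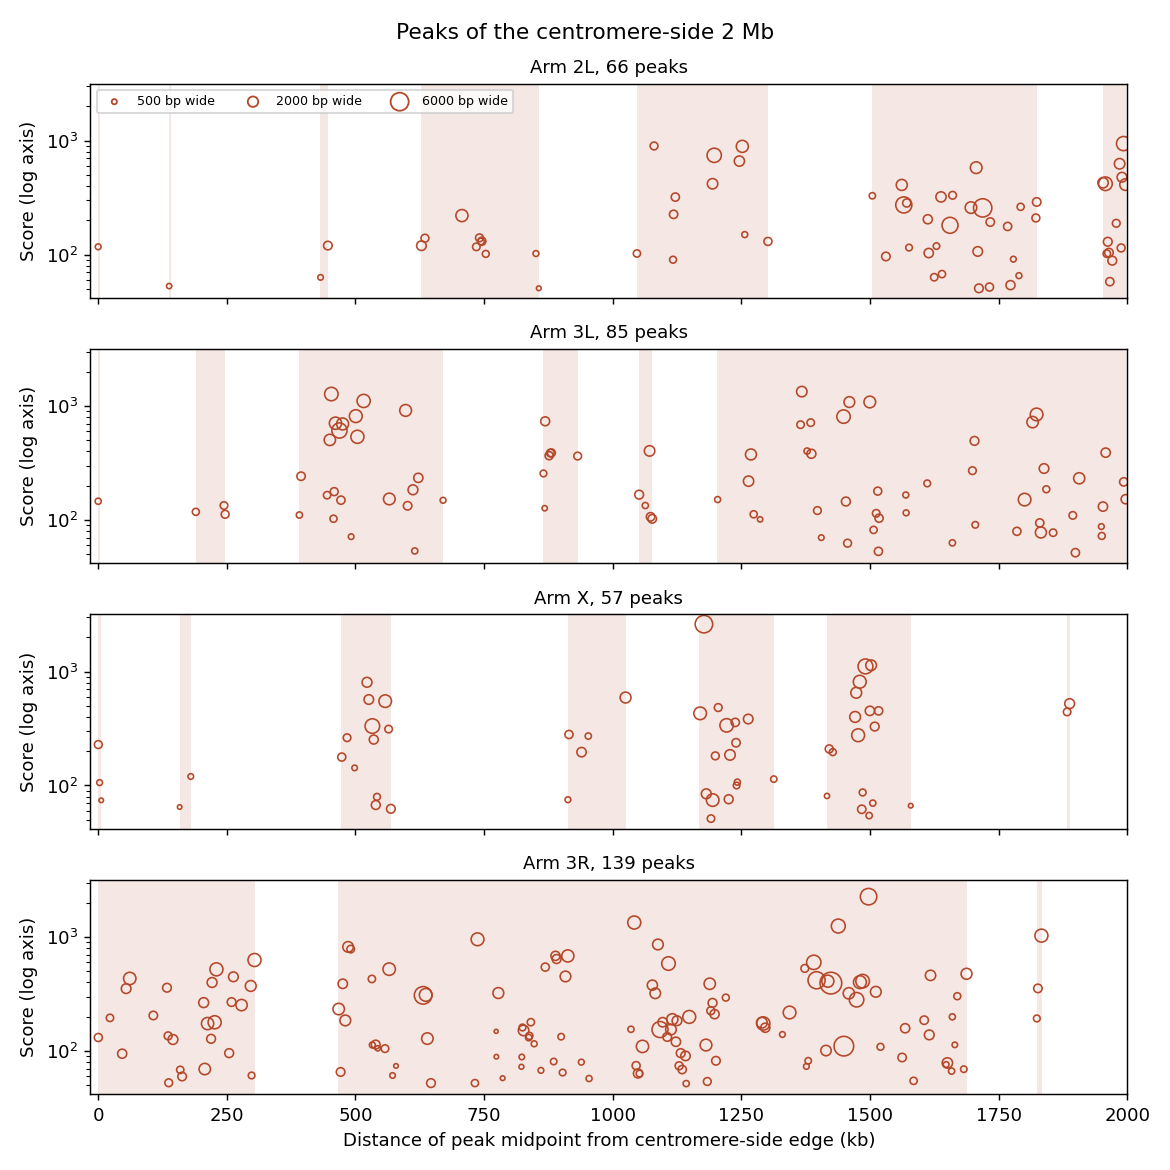
Every circle is one of the 347 peaks, placed by the distance of its midpoint from the centromere-side edge (kb) and by its score (log axis), with its area in proportion to its width. Shaded spans are groups of peaks not parted by more than 100 kb. X shows 7 compact groups separated by empty intervals of up to 343 kb, while 110 of the 139 peaks on 3R lie in 1 group.

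Density was also computed with intervals of over 100 kb left out of the length. This removes more length from a part with more empty sequence, so it brings the sparse ends nearer to the rest of their arms by construction, and the values only describe the groups of peaks. Density outside the intervals was 103 peaks per Mb in the end of X, against 94.8 in the rest of X, a log2 ratio of 0.12 (interval -0.29 to 0.50). It was 75.9 in the end of 2L, against 90.8 in the rest of 2L (log2 ratio -0.26, interval -0.64 to 0.10). On 3L it was 69.2 in the end, against 95.6 in the rest, and that log2 ratio of -0.47 had an interval of -0.80 to -0.15. On 3R it was 90.3 in the end, against 91.3 in the rest. The values depend on the length used. With only intervals of over 200 kb left out, density was 53.7 in the end of X, against 71.0 in its rest (log2 ratio -0.40, interval -0.81 to -0.02). It was 43.9 in the end of 2L, against 66.2 in its rest (log2 ratio -0.59, interval -0.97 to -0.24), and 42.5 in the end of 3L, against 74.6 in its rest (log2 ratio -0.81). All 3 intervals then lay below 0.

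Stretches of 100 kb counted from the edge gave the same order of arms by the median number of peaks, but 3L and 3R tied by the share of empty stretches. In the end of X 8 of 20 such stretches held no midpoint (40%), against 23 of 203 in the rest of X (11.3%). On 2L 5 of 20 were empty (25%), against 32 of 208 (15.4%). The end of 3L had 2 of 20 empty (10%), against 22 of 212 in its rest (10.4%), and the end of 3R had 2 of 20 (10%), against 32 of 258 (12.4%). The median stretch held 1.5 peaks in the end of X, against 6 in its rest, and 2 in the end of 2L, against 5. It held 5 in the end of 3L, against 6 in its rest, and 6 in both parts of 3R.

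The second question was how neighbouring peaks were spaced. The shares of neighbours within 5 kb differed by less than counting error, while the distant neighbours of the sparse ends lay farther apart. Midpoints within 5 kb made up 46.4% of 56 neighbouring pairs in the end of X, against 44.9% in the rest of X, and 40.0% of 65 pairs in the end of 2L, against 43.3%. They made up 40.5% of 84 pairs in the end of 3L, against 47.7%, and 39.9% of 138 pairs in the end of 3R, against 42.5%. The exact 95% interval of each end value included the value of the rest. It was widest on X, 33.0 to 60.3%, and narrowest on 3R, 31.6 to 48.5%. Within 2 kb this did not hold on 3R, where 7.2% of pairs in the end lay that close (interval 3.5 to 12.9%), against 13.4% in the rest.

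The median distance between neighbouring midpoints was 5.50 kb in the end of X, against 5.70 kb in the rest, and 6.04 kb in both parts of 2L. It was 6.98 kb in the end of 3L, against 5.35 kb, and 5.70 kb in the end of 3R, against 5.90 kb. The mean distance, which long intervals raise, is close to the inverse of the density by construction and so repeats the density values. It was 33.7 kb in the end of X, against 15.4 kb in its rest, and 30.7 kb in the end of 2L, against 17.2 kb. On 3L the mean was 23.8 kb, against 14.6 kb in the rest, and on 3R it was 13.3 kb, against 15.6 kb. Upper quartiles were also larger on the sparse ends, with 30.8 kb in the end of 2L, against 14.6 kb in its rest, and 35.9 kb in the end of 3L, against 12.3 kb. The upper quartile was 17.5 kb in the end of X, against 11.9 kb in the rest of X, so the ends do not stand in the same order by this value as by the mean.

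**Figure D4:**
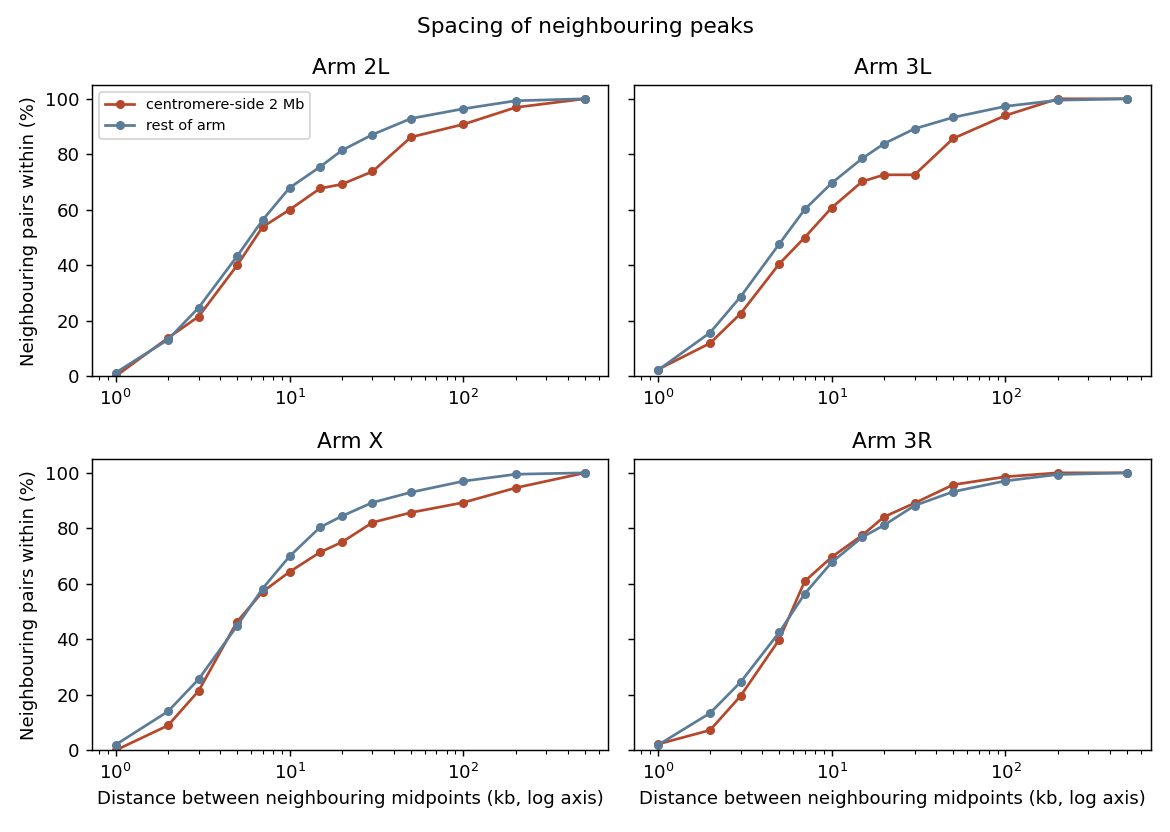
Lines give the share of neighbouring pairs whose midpoints lie within a given distance (kb, log axis), in red for the centromere-side 2 Mb and in blue for the rest of the arm. At 5 kb the ends have 39.9 to 46.4%, against 42.5 to 47.7% in the rests. At 30 kb the end has 72.6% on 3L, 73.8% on 2L and 82.1% on X, against 87.1 to 89.3% in the rests of those arms, and 89.1% on 3R, against 88.2%.

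Peaks with no neighbour within 20 kb were a larger share of the sparse ends. A lower density by itself tends to raise this share, the upper quartiles and the number of empty stretches. None of them is therefore separate from the density values. They numbered 8 of 66 in the end of 2L (12.1%), against 52 of 1215 in its rest (4.28%), and 6 of 57 in the end of X (10.5%), against 2.80% in its rest. In the end of 3L there were 8 of 85 (9.41%), against 3.01%, and in that of 3R 3 of 139 (2.16%), against 4.25%. Dense runs were present as well. The longest runs with steps of at most 5 kb were 7 peaks at 2L 20904206 to 20923772, 7 at 3R 1179920 to 1201204, 6 at X 20929678 to 20945893 and 5 at 3L 22870216 to 22883747. The rests of these arms held runs of up to 8, 16, 10 and 9 peaks in that order of arms.

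The fullest stretch of 100 kb in the 4 ends was 3R 1100003 to 1200002, with 18 peaks that covered 31954 bp of it. Its median score of 143.22 was below that of the rest of 3R. The fullest stretch of the 2L end was its innermost, 2L 20875436 to 20975435, with 13 peaks. On X it was X 20915741 to 21015740, with 12 peaks. On 3L the stretches 3L 22832959 to 22932958 and 3L 21432959 to 21532958 held 10 each, with median scores of 341.69 and 130.58.

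The third question was whether the peaks of the ends were narrower or wider. Their median widths differed from those of the rest by less than counting error. The median was 1262 bp in the end of X, against 1423.5 bp in the rest of X, and 1240 bp in the end of 2L, against 1340 bp. It was 1219 bp in the end of 3L, against 1313 bp in its rest. On 3R the end had the larger value, 1466 bp, against 1355 bp. The exact binomial intervals of the end medians were 1068 to 1597 bp on X, 1143 to 1405 bp on 2L, 1076 to 1409 bp on 3L and 1341 to 1724 bp on 3R, and each included the median of the rest. With only scores of 100 or more this did not hold on 3L, where the log2 ratio was -0.28 (interval -0.48 to -0.02).

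Few members lay at the extremes of width. Peaks of 4 kb or more made up 3.51% of the end of X, against 8.61% of its rest, and 1.18% of the end of 3L, against 5.67%. They made up 4.55% of the end of 2L, against 7.16%, and 4.32% of the end of 3R, against 6.25%. These shares rest on 2, 1, 3 and 6 peaks. Peaks under 600 bp were also a smaller share in the ends of 2L (4.55%, against 9.38% in its rest), 3L (4.71%, against 9.71%) and 3R (7.91%, against 9.70%), but not in that of X (10.5%, against 7.10%). In that order of arms these shares rest on 3, 4, 11 and 6 peaks. No interval was computed for the shares of wide or narrow peaks, so they are descriptions only.

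The widest members were 3R 1419507 to 1428178 with 8672 bp, 2L 21153567 to 21159727 with 6161 bp, X 21235757 to 21241370 with 5614 bp and 3L 22861820 to 22866050 with 4231 bp. The first of them had a score of only 393.26, although no more than 12 peaks on 3R were wider. The one on 2L had 257.51, a value that 512 peaks of 2L exceeded, and was exceeded in width by 25. On X the widest peak was also the one of highest score. The narrowest members measured 299 bp on 3R, 371 bp on X, 411 bp on 2L and 520 bp on 3L.

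Among the 500 kb steps of each end, the outermost had the lowest median width on 2L, X and 3L but not on 3R. The median width there was 599.5 bp over 4 peaks of 2L and 601.5 bp over 8 peaks of X, and in the next 500 kb it was 1075 bp and 1456 bp. On 3L the outermost value was 1152 bp over 16 peaks, and on 3R it was 1673.5 bp over 32. Across the peaks of an end, the rank correlation of width with distance from the edge was 0.32 on 2L (n = 66), 0.14 on X (n = 57), 0.06 on 3R (n = 139) and -0.03 on 3L (n = 85). All the peaks of an arm share one library and one peak call, so these are descriptions.

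The last question concerned the score that the authors' list gives each peak, which the file does not define. It starts at 50 and piles up at 3100, and it orders peaks within this list only, not amounts of binding. Median scores were lower in the ends of 2L, 3L and 3R and similar on X. The end of 2L had a median of 140.06, against 198.47 in the rest of 2L, and its binomial interval of 117.31 to 220.44 included the value of the rest. With an end of 1 Mb the log2 ratio on 2L was -0.74, and its interval of -1.65 to -0.51 lay below 0. On 3L the median was 166.11 in the end, against 201.23 (interval of the end 134.27 to 234.81). On X it was 228.66 in the end, against 232.81 (interval 119.92 to 328.91). The end of 3R had 160.38, against 199.48 in the rest of 3R, and its interval of 133.21 to 194.79 lay below that value. This did not hold in 3 alternatives: the interval of the log2 ratio was -0.78 to 0.23 with an end of 1 Mb, -0.58 to 0.20 with scores of 100 or more and -0.55 to 0.00 with merged peaks.

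**Figure D5:**
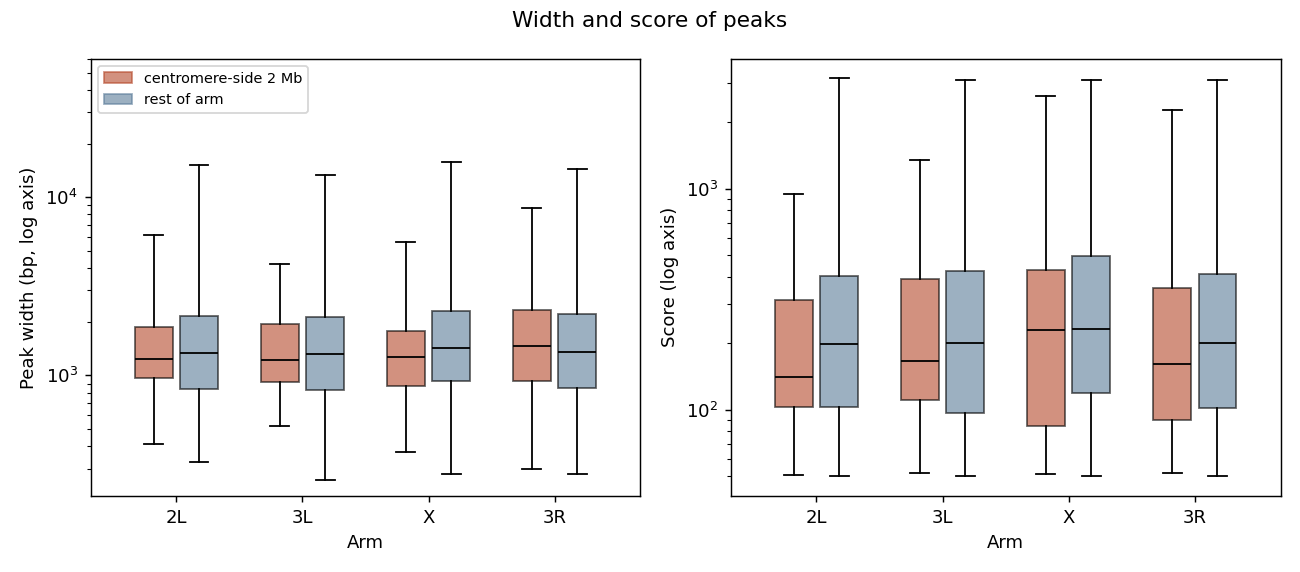
Boxes give the quartiles and median of peak width (left, bp) and score (right, authors' scale) per arm, with whiskers from the lowest to the highest value, both on log axes. The centromere-side 2 Mb is in red and the rest of the arm in blue. Median widths are 1219 to 1466 bp in the ends and 1313 to 1423.5 bp in the rests, while the median score on 3R is 160.38 in the end and 199.48 in the rest.

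The median score on 3R was lower in the end in each class of width. In the quartile classes of width of the whole list, its medians were 81.2 in the end, against 90.7 in the rest, for peaks of up to 873 bp, and 135.41, against 167.41, up to 1366 bp. They were 183.99, against 270.97, up to 2190 bp and 388.38, against 520.11, above that, with 29 to 41 peaks of the end in each class. The median of the 2 Mb window was the lowest of the 13 windows of 3R, where the others ran from 179.53 to 251.98. On 2L the end was lower in the 3 wider classes, for example 167.25, against 253.20, between 1366 and 2190 bp (14 peaks in the end). On X and 3L the classes went both ways. Peaks above 2190 bp had medians of 429.62 in the end of X, against 634.86 in its rest, and 703.36 in the end of 3L, against 569.58 in its rest.

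Few of the list's highest scores lay in the ends. A score of 1000 or more was held by 12 of the 347 peaks (3.46%, exact 95% interval 1.80 to 5.96%), against 405 of 5651 in the rests (7.17%, interval 6.51 to 7.87%). None of the 347 reached 3100, which allows a share of up to 0.865% if a count of 0 allows at most 3. The rests held 23 among 5651, a share below that limit, so this count does not set the ends apart. By arm the counts of 1000 or more were 0 of 66 in the end of 2L (which allows up to 4.55%), against 6.58% in its rest, and 4 of 139 in the end of 3R (2.88%), against 7.10%. They were 3 of 57 on X (5.26%), against 8.61%, and 5 of 85 on 3L (5.88%), against 6.43%. The exact 95% interval of the end included the value of the rest on 3R, X and 3L, narrowly so on 3R. It was 0.7895 to 7.204% on 3R, 1.099 to 14.62% on X and 1.937 to 13.2% on 3L. Only on 2L did the upper limit lie below the value of the rest. The share of scores under 100 was 24.5% over the 4 ends, against 23.3% over the rests. On X it was 29.8% in the end, against 18.9% in the rest, and on 3L 17.6% in the end, against 26.4%.

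The highest score of all members was 2606.44, at X 21235757 to 21241370, a peak 1177 kb from the edge. Of the 1381 peaks on X, 20 scored higher. Next on X came X 20912697 to 20914769 (1135.41), X 20922681 to 20926751 (1109.78) and X 20934298 to 20937339 (813.63). These 3 belonged to the group of 17 peaks. The fifth, X 21892250 to 21894035 (805.19), was the highest of the outermost 1 Mb.

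On 3R the highest was 3R 1494589 to 1499580 with 2257.71, which only 8 peaks of that arm exceeded. It was followed by 3R 1040229 to 1043366 (1338.39), 3R 1436470 to 1440035 (1246.52), 3R 1831338 to 1834450 (1026.76) and 3R 735843 to 738859 (953.74). The fourth of these was the last peak before the 341.8 kb interval at the boundary. None of the 69 peaks in the outermost 1 Mb of 3R reached 1000, which allows a share of up to 4.35%.

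On 3L the 5 highest scores were 1342.26 at 3L 21964608 to 21966622, 1277.88 at 3L 22877964 to 22881302, 1111.39 at 3L 22815287 to 22818480, 1087.96 at 3L 21832214 to 21834721 and 1086.54 at 3L 21872182 to 21874296. Those at 22877964 and 22815287 lay 453 and 516 kb from the edge. The outermost 1 Mb of 3L had a median score of 234.81 over 33 peaks and the inner 1 Mb 151.31 over 52 peaks, with overlapping binomial intervals of 149.18 to 389.07 and 112.39 to 216.42. By steps of 500 kb the medians were 157.52, 364.89, 193.31 and 123.59 from the edge inward, so they followed no single direction.

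On 2L the highest member scored 944.66, at 2L 20881097 to 20884798, and 84 peaks of the arm scored higher. The others were 2L 21794574 to 21795698 (900.50, with a width of only 1125 bp), 2L 21622322 to 21624985 (893.25), 2L 21676380 to 21680143 (745.52) and 2L 21628416 to 21630333 (663.21). None lay in the outermost 1 Mb, where the 14 peaks ran from 50.72 to 220.44.

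The peaks that set the edges were ordinary in score. The outermost member of 2L, at 2L 22874806 to 22875435, was 630 bp wide with a score of 117.31, and that of 3L, at 3L 23332255 to 23332958, was 704 bp wide with 146.42. The outermost member of X, X 22414607 to 22415740, had 1134 bp and 228.66. The outermost of 3R, 3R 3 to 1191, had 1189 bp and 131.00, and its start 3 bases into the arm sequence leaves no room for a peak farther out in that sequence.

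Score and width were related in the ends as in the rest. The rank correlation was 0.64 in the end of X (n = 57), against 0.69 in its rest, 0.61 in the end of 3L (n = 85), against 0.68, 0.60 in the end of 3R (n = 139), against 0.65, and 0.57 in the end of 2L (n = 66), against 0.66. Both quantities come from the same peak call, so the relation is no independent measure.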

How the data were processed

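ChIP-seq was done on 1 ChIP sample and 2 inputs. The authors deposited 1 peak list, made with MACS per the file headers. Reads were aligned with Bowtie to BDGP5, per the submitters' processing notes. Not given in the sources used here are their versions and settings and any pooling of replicates. The list as deposited by the authors holds starts, ends and a score of undefined scale per peak, with no read counts, so depth is unknown.

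Starts are printed from 1 and midpoints are means of start and end. Distances were counted from the last peak end (2L, 3L, X) or first peak start (3R) of an arm, since the list gives no arm lengths. Peaks per Mb were compared by ratios with exact binomial (Clopper-Pearson) 95% intervals, medians by order-statistic binomial intervals. Correlations are Spearman's rho. No test was made, since 1 list has no replicates. The functions were checked on simulated lists. Named regions were the outermost, widest and narrowest peak, the 5 of highest score, the longest empty interval and run, and the fullest 100 kb of each end. Other groups and intervals were named after their values were seen. Members and measures were chosen with earlier results of these data known. The gene table at hand was of Release 6, so no genes or sequences are given. Python 3.11.15, pandas 2.3.3, SciPy 1.17.1 and matplotlib 3.10.9 were used.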

Additional observations from a re-analysis of the deposited data

Results flagged for a closer look

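The sequence XHet, which holds X heterochromatin apart from the arm, carried 7 peaks and entered no comparison above. It is listed because 7 exceeds 3, the most that a count of 0 allows, which is no expected number for this sequence. Their scores ran from 52.14 to 303.11 and their widths from 501 to 825 bp. The matching sequences of 2L, 3L and 3R held 1, 2 and 2 peaks. The lengths of these sequences are not in the list, so their densities were not compared. No input peaks were used here, so none of these was set against a control.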

How the results depend on the processing

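Of 28 alternatives for the density ratio, 23 stayed within the counting interval of the reported value. With an end of 1 Mb the log2 ratio was -2.05 on 2L, -1.04 on 3L and -1.60 on X, and with 3 Mb it was -0.32 on 3L and -0.78 on X, as the gradient gives by construction. In every alternative 2L, 3L and X were below 0. For width, 22 of 24 stayed: 2L moved to -0.49 with 1 Mb and to -0.30 with scores of 100 or more. The intervals of these 2L values, -1.23 to 0.02 and -0.50 to 0.06, included 0. One that stayed was 3L with scores of 100 or more, at -0.28, whose interval of -0.48 to -0.02 excludes 0. For score, 23 of 24 stayed, and 3L turned to 0.24 with 1 Mb. One that stayed was 2L with 1 Mb, at -0.74, whose interval of -1.65 to -0.51 excludes 0. The interval of the reported 2L value, -0.76 to 0.15, does not. The score ratio of 3R was -0.31 as reported and -0.20 to -0.42 in its 6 alternatives, but its interval reached or included 0 with 1 Mb (-0.42), with merged peaks (-0.28) and with scores of 100 or more (-0.20). Density outside long intervals (lengths of 50 and 200 kb chosen after seeing the data) stayed in 6 of 8 and moved to -0.81 on 3L and -0.40 on X with 200 kb. One of the 6 was 2L with 200 kb, at -0.59, whose interval of -0.97 to -0.24 excludes 0 where that of the reported -0.26 does not. The share of close neighbours stayed in 18 of 32. By construction it was lower within 2 kb (13.8% on 2L, 11.9% on 3L, 8.9% on X, 7.2% on 3R; rests 13.2%, 15.7%, 14.0% and 13.4%, the last outside the interval of its end) and higher within 10 kb (60%, 60.7%, 64.3% and 69.6% in the same order). With peaks merged across 500 bp it was 23.6% on 2L, 26.8% on 3L and 29.5% on 3R, against 28.3%, 29.7% and 28.5% in the rests. Merging joins neighbours with small gaps, so it takes out close pairs by construction. With scores of 100 or more it was 25.6% on X and 29.3% on 3R, against 37.1% and 34.0% in the rests. With 1 Mb it was 15.4% on 2L (13 pairs, interval 1.9 to 45.4%), against 43.4% in the rest. Each of these intervals included the value of the rest. The cause of the shifts with scores of 100 or more and with 1 Mb was not tested. No paired analysis was possible because 1 list stands for all ChIP replicates. Leaving out a replicate was not possible either. Depth is unknown, so the number of peaks a deeper library would list in the empty intervals was not tested.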
